A study of Petromyzon marinus with 10 samples.

Results

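Of the 57134 loci assembled from brainstem RNA of larval sea lampreys (Petromyzon marinus), 6 are described here. They are the loci of 3 kinases and 1 phosphatase that respond to stress or growth signals, SGK1 (MSTRG.1275), PIM1 (MSTRG.26006), PIM3 (MSTRG.8135) and DUSP1 (MSTRG.13497), and 2 neighbouring loci that both carry the name DYRK2 (MSTRG.8327 and MSTRG.8329), a further kinase. The names are those that the study's list of genes changed by baclofen pairs with these locus numbers, and the lamprey proteins were not examined here. All 6 were chosen because they were higher in baclofen libraries, so the comparison of the 2 groups is a description of these loci and no test of them.

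Larvae aged 5 to 7 years were taken from a river, and their spinal cord was cut completely. The baclofen group (5 libraries) was then kept with baclofen, an agonist of the GABAB receptor, in its water, and the control group (5 libraries) was injured in the same way and received no baclofen. Each library is a pool of brainstems of several animals, so the spread between libraries is a spread between pools, wild-caught animals differ genetically, and no uninjured brainstem was compared. The series text gives 29 days after injury for these libraries. The study's paper gives that day for a separate experiment with GABA, and throughout puts the baclofen animals and their controls at an earlier day.

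SGK1 is a serine/threonine kinase that mammalian cells make quickly after glucocorticoids, osmotic stress or growth factors, and that is switched on through PI3 kinase to act on ion channels, transporters and transcription factors. PIM kinases have no known activating phosphorylation step and are active as soon as they are made, so that their activity depends largely on how much protein is present. That protein was not measured here. DUSP1 is a nuclear phosphatase, induced by stress and by steroids, that removes phosphate from MAP kinases and so ends their signal. DYRK2 belongs to the dual-specificity kinases, which phosphorylate themselves on tyrosine while they fold and other proteins on serine and threonine, and in mammals it has been linked to the response to DNA damage and to the proteasome.

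Total counts ran between 12774386 and 19566056 over the 10 libraries and did not differ detectably between the groups (two-sided exact permutation test, p = 0.532). In the paper's alignment statistics, the share of uniquely mapped reads was higher in most baclofen libraries than in every control. The exception, which the paper numbers baclofen 2, had the lowest share of all 10 libraries. The bearing of that share on the counts was not tested. Control library 1 stood apart from the others. Its loci deviated from their group means with an SD of 0.255 on the log2 scale, against 0.160 to 0.205 in the other 9 libraries. Values without it are therefore given for the 6 loci and for the number of calls where they differ. Loci near the 6, loci most like them, listed genes and cell type markers were compared with all 10 libraries only. Over all loci, 64 of 23794 tested loci (0.269%) were higher with baclofen at a DESeq2 adjusted p-value under 0.05, and 18 (0.0756%) were lower, or 82 (0.345%) in all. Without control library 1 it was 124 higher and 302 lower of 12802 tested loci, so the balance of directions turned with that library. All 6 loci described here are among the 64, as their choice required. The edgeR quasi-likelihood test called 25 of 27244 loci (0.0918%), 23 of them higher (0.0844%), and 5 of the 6 loci are among these. The groups did not overlap in 297 of the 23794 tested loci (1.25%). In 182 of the 23794 tested loci (0.765%) every baclofen library lay above every control library, as in all 6 loci here. Just inside the threshold of the comparison lay MSTRG.27497 (log2 fold change −0.50, adjusted p = 0.0469) and just outside it MSTRG.29392 (log2 fold change 0.34, adjusted p = 0.0516). In RNA from a whole brainstem, more cells of one type and more RNA per cell cannot be told apart, and this holds for every value that follows.

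SGK1 lies on scaffold PIZI01000002.1 of the assembly Pmar_germline 1.0, from 6021896 to 6046027 on the plus strand. Its 14 exon records sum to 6969 bp, and the last of them alone holds 5225 bp. Normalised counts, which are fragment counts divided by the size factor of their library, were 1262, 1420.1, 1532, 1362 and 1446 in baclofen libraries 1 to 5 and 905, 1147, 1055, 896 and 1018 in control libraries 1 to 5. All baclofen libraries lay above all controls, and the lowest of them (library 1) stood 1.10-fold above the highest control (library 2). The means were 1404 ± 100.2 with baclofen, against 1004 ± 106 in controls (SD over the 5 libraries of each group), which gave a log2 fold change of 0.49 ± 0.08 (SE), or 1.40-fold. SGK1 ranked 16 of the 82 called loci by p-value (DESeq2 adjusted p = 2.75e-06, edgeR adjusted p = 0.0108). Its baclofen libraries had a coefficient of variation of 7.14%, against 10.5% in controls, where counting alone would give 2.63% and 3.21%.

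**Figure D1:**
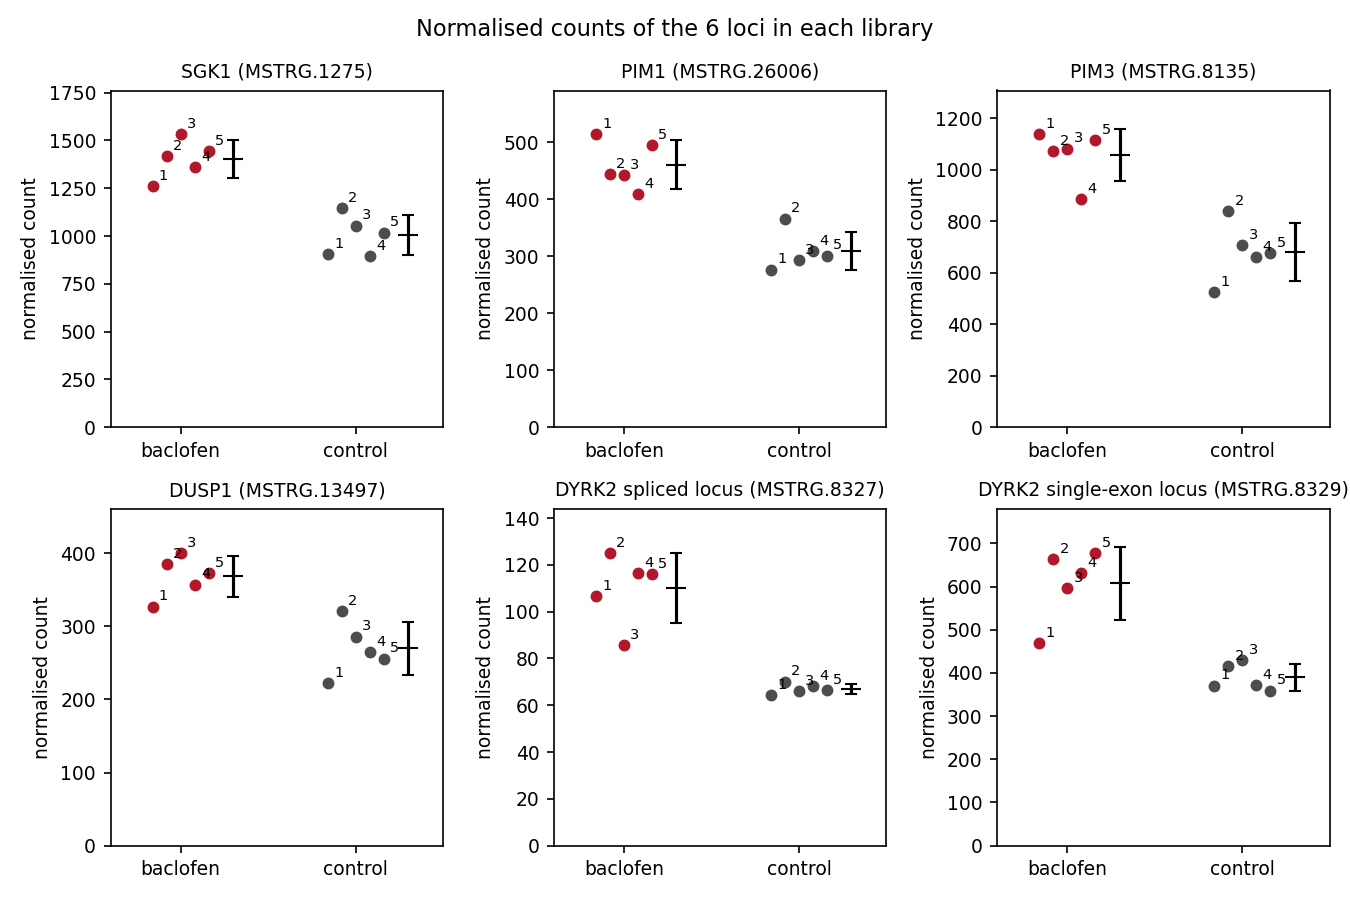
Normalised counts (y axis, from 0) of the 6 loci in each library, with baclofen libraries in red on the left and control libraries in grey on the right of each panel. Numbers are library numbers, and bars are the mean ± SD of 5 libraries. In each panel the 5 baclofen libraries lie above the 5 controls, with the narrowest gap in DUSP1, where the lowest baclofen library is 1.02-fold above the highest control.

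PIM3 and PIM1 are the loci of 2 closely related kinases. PIM3 lies on scaffold PIZI01000010.1 from 3519419 to 3525233 on the plus strand, with 6 exon records and 3086 bp of exon. PIM1 lies on scaffold PIZI01000042.1 from 4810477 to 4820316 on the minus strand, with 7 exon records and 4565 bp of exon. Read in the direction of transcription, both loci have a second exon of similar length (107 bp in PIM3 and 108 bp in PIM1) followed by an exon of 51 bp, and both end in a long last exon (2068 bp in PIM3 and 3034 bp in PIM1).

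PIM3 had normalised counts of 1136, 1070.4, 1081, 884 and 1113 in baclofen libraries 1 to 5 and of 524, 838, 707, 661 and 676 in control libraries 1 to 5. Baclofen library 4 stood below the other 4, which lay close together, yet it was still above control library 2, the highest control. The means were 1057 ± 100.2 with baclofen, against 681 ± 112 in controls (SD over the 5 libraries of each group), which gave a log2 fold change of 0.63 ± 0.11 (SE), or 1.55-fold. PIM3 ranked 19 among the called loci (DESeq2 adjusted p = 6.84e-06, edgeR adjusted p = 0.0153). Its control libraries spread more widely than its baclofen libraries, with coefficients of variation of 9.48% for baclofen and 16.4% for control. The low value of control library 1 bears on this locus more than on the others, since the log2 fold change was 0.55 without that library and 0.72 without control library 2.

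PIM1 had normalised counts of 514, 444, 442, 409.5 and 494 in baclofen libraries 1 to 5 and of 277, 366, 293, 309 and 301 in control libraries 1 to 5. Control library 2 was again the highest control, and the lowest baclofen library was 1.12-fold above it. The means were 461 ± 42.4 with baclofen, against 309 ± 33.9 in controls (SD over the 5 libraries of each group), which gave a log2 fold change of 0.58 ± 0.10 (SE), or 1.49-fold. PIM1 ranked 17 among the called loci (DESeq2 adjusted p = 3.40e-06, edgeR adjusted p = 0.0115).

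DUSP1, the phosphatase among the 6, lies on scaffold PIZI01000018.1 from 6718418 to 6778359 on the minus strand. Its 5 exon records sum to 3212 bp, of which 4 lie between 6718418 and 6726624, while a record of 39 bp lies far away at 6778321 to 6778359. Normalised counts were 327, 385, 400.5, 357 and 373 in baclofen libraries 1 to 5 and 222, 320.4, 286, 265 and 256 in control libraries 1 to 5. The groups did not overlap, but baclofen library 1 was only 1.02-fold above control library 2, the smallest gap of the 6 loci. The means were 369 ± 28.1 with baclofen, against 269.9 ± 36.4 in controls (SD over the 5 libraries of each group), which gave a log2 fold change of 0.45 ± 0.10 (SE), or 1.37-fold, the smallest of the 6. DUSP1 ranked 48 among the called loci (DESeq2 adjusted p = 0.00571), and it was the only one of the 6 that edgeR did not call (adjusted p = 0.126). Its call was also lost without baclofen library 3 (DESeq2 adjusted p = 0.0515), without baclofen library 5 (0.0695) and without control library 5 (0.0599). With the library number as a block in the fit, the DESeq2 adjusted p was 0.0595.

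The 2 DYRK2 loci follow each other on the plus strand of scaffold PIZI01000010.1. The first, MSTRG.8327, runs from 9103797 to 9121649 and is spliced, with 4 exon records of 254, 204, 922 and 1550 bp. The second, MSTRG.8329, runs from 9124413 to 9128734 and is a single exon of 4322 bp. They are 2763 bp apart, and the small locus MSTRG.8328 (346 bp, same strand) sits between them, with 41 raw counts over the 5 baclofen libraries and 17 over the 5 controls, too few for an adjusted p-value. Whether the 2 loci are parts of one transcript was not tested.

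The spliced DYRK2 locus had normalised counts of 107, 125, 85.8, 117 and 116 in baclofen libraries 1 to 5 and of 64.5, 70.1, 66.0, 68.3 and 66.6 in control libraries 1 to 5. It had the fewest counts of the 6 loci, and its lowest baclofen library was 1.22-fold above its highest control. The means were 110.1 ± 15.04 with baclofen, against 67.1 ± 2.15 in controls (SD over the 5 libraries of each group), which gave a log2 fold change of 0.72 ± 0.15 (SE), or 1.64-fold, the highest of the 6 (DESeq2 adjusted p = 0.00118, edgeR adjusted p = 0.0466). Without control library 1 the log2 fold change was 0.70, with no adjusted p from DESeq2. With the library number as a block in the fit, the DESeq2 adjusted p of this locus was 0.189. Its coefficient of variation was 13.7% in the baclofen libraries, where counting alone gives 9.46%. In the 5 controls it was 3.21%, where counting gives 12.4%, so these lay closer together than counting alone would leave them on average.

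The single-exon DYRK2 locus had normalised counts of 469, 663, 596, 630.3 and 678 in baclofen libraries 1 to 5 and of 371, 416, 429.8, 372 and 359 in control libraries 1 to 5. Baclofen library 1 was the lowest of its group, yet it was 1.09-fold above the highest control (library 3). The means were 607 ± 83.6 with baclofen, against 389.5 ± 31.4 in controls (SD over the 5 libraries of each group), which gave a log2 fold change of 0.64 ± 0.10 (SE), or 1.56-fold. With rank 11 this locus had the smallest p-value of the 6 (DESeq2 adjusted p = 6.37e-07, edgeR adjusted p = 0.0110). Counted together as one gene, the 2 DYRK2 loci gave a log2 fold change of 0.66 (DESeq2 adjusted p = 1.63e-08).

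The proportion of the 2 DYRK2 loci to each other lay close in the groups. The single-exon locus had 5.58 ± 0.93 times the counts of the spliced locus with baclofen and 5.81 ± 0.45 times in controls (SD, n = 5 each). Per kb of exon this was 3.78 ± 0.63 times with baclofen, against 3.94 ± 0.31 times in controls. The ratio ran from 4.39 (library 1) to 6.94 (library 3) among baclofen libraries and from 5.39 to 6.51 among controls, so the baclofen libraries enclosed the control range. The mean log2 ratio of the spliced to the single-exon locus was greater by 0.07 ± 0.12 with baclofen than in controls (SE, 95% interval −0.19 to 0.34). The interval leaves room for a difference in either direction (two-sided exact permutation test, p = 0.571, adjusted over 15 pairs 0.714). Without baclofen library 1 the difference was −0.01, and without baclofen library 3 it was 0.15.

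**Figure D2:**
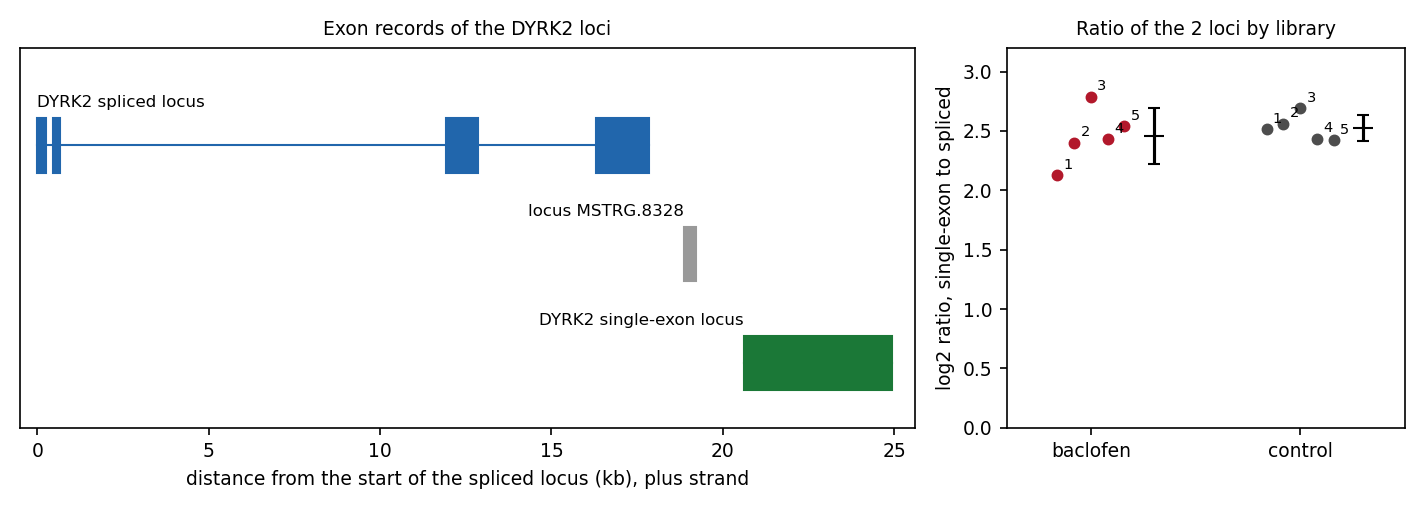
Left, exon records of the spliced DYRK2 locus (blue), the small locus MSTRG.8328 (grey) and the single-exon DYRK2 locus (green), by distance in kb from the start of the spliced locus on the plus strand. Right, log2 ratio of the count of the single-exon locus to that of the spliced locus in each library (y axis), baclofen left and control right, with numbers for libraries and bars for the mean ± SD of 5 libraries. The loci are 2763 bp apart, and the baclofen ratios (2.13 to 2.79) enclose the control ratios (2.42 to 2.69).

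To compare levels between loci, normalised counts were divided by the kb of exon. That length is the summed exon length of each assembled locus, so the levels, their order and their percentiles depend on the assembly. On this scale PIM3 was the highest of the 6 loci, with 342.5 ± 32.5 per kb with baclofen and 221 ± 36.3 per kb in controls (SD, n = 5 each). SGK1 came next with 202 ± 14.4 per kb with baclofen and 144 ± 15.2 per kb in controls. Lower levels were found for the single-exon DYRK2 locus (140.5 ± 19.3 with baclofen, 90.1 ± 7.26 in controls), DUSP1 (115 ± 8.75 with baclofen, 84.0 ± 11.3 in controls) and PIM1 (101 ± 9.29 with baclofen, 67.7 ± 7.43 in controls). The spliced DYRK2 locus had the lowest level, with 37.6 ± 5.13 per kb with baclofen and 22.9 ± 0.74 per kb in controls.

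The order of levels was the same in both groups. PIM3 exceeded SGK1, SGK1 exceeded the single-exon DYRK2 locus and PIM1 exceeded the spliced DYRK2 locus in all 10 libraries, without overlap within either group. The 3 loci in the middle were not separated in this way. The single-exon DYRK2 locus was above DUSP1 in 5 of 5 baclofen and 4 of 5 control libraries, and DUSP1 was above PIM1 in 4 of 5 baclofen and 5 of 5 control libraries, with overlapping ranges for both neighbours. Among the tested loci, the level per kb of PIM3 was at the 88.8th percentile, that of SGK1 at the 80.5th and that of the spliced DYRK2 locus at the 25.4th. PIM3 had 2.30 ± 0.13 times the counts of PIM1 with baclofen and 2.198 ± 0.196 times in controls (SD, n = 5 each).

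**Figure D3:**
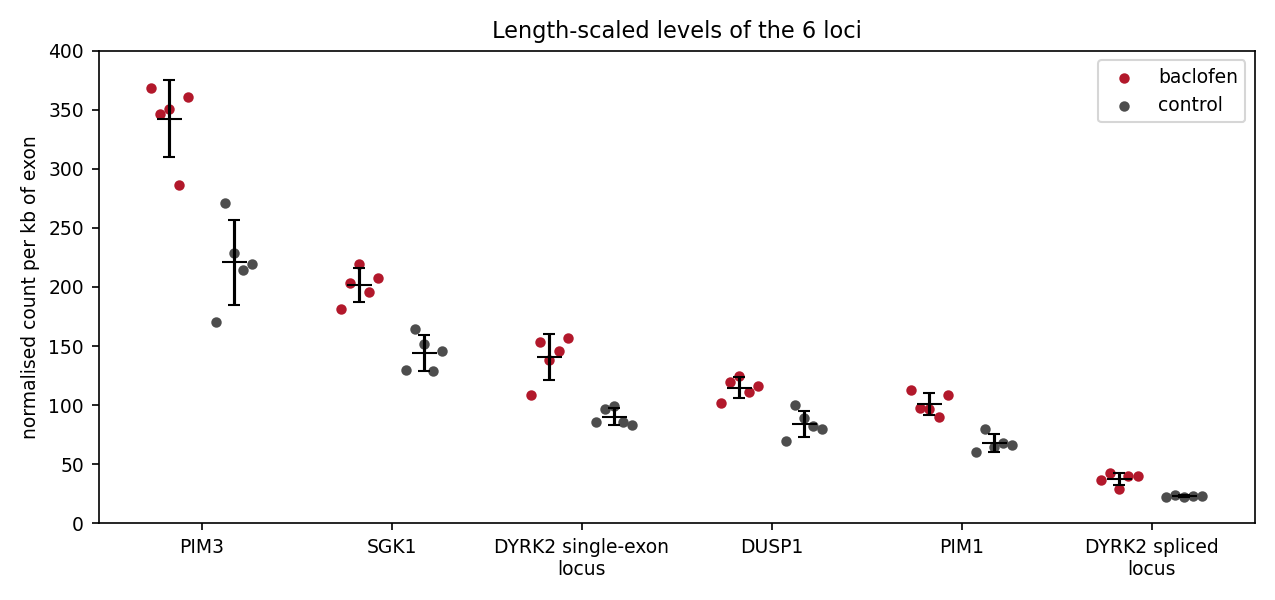
Normalised count per kb of exon (y axis, from 0) of the 6 loci, ordered by level, with baclofen libraries in red to the left of control libraries in grey. Bars are the mean ± SD of 5 libraries. The order from PIM3 (342.5 with baclofen, 221 in controls) down to the spliced DYRK2 locus (37.6 with baclofen, 22.9 in controls) is the same in both groups.

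Log2 fold changes of the 6 loci ran from 0.45 (DUSP1) to 0.72 (spliced DYRK2), with a median of 0.61, beside a median of 0.50 for the 64 loci called higher and of −0.01 for all tested loci. The 6 loci were chosen by the change of each on its own, not by the difference between 2 changes. Both rest on the same libraries, so that choice may have shifted the differences, their intervals and their p-values. This also holds for the DYRK2 difference above. To compare 2 changes, the log2 ratio of 2 loci was compared between the groups for each of the 15 pairs. None passed an adjusted p of 0.05 (two-sided exact permutation tests, Benjamini-Hochberg over the pairs), and 1 had an unadjusted p under 0.05. A lone pair could not have passed, since with 5 libraries a group the smallest p is 0.00794, which the adjustment over 15 pairs turns into 0.119. That pair was PIM3 and DUSP1, whose mean log2 ratio of PIM3 to DUSP1 was greater by 0.19 ± 0.09 with baclofen (SE, 95% interval 0.01 to 0.41, exact permutation p = 0.0476, adjusted 0.437). Without baclofen library 1 this difference was 0.12. For the related kinases, the mean log2 ratio of PIM1 to PIM3 was lower by 0.07 ± 0.07 with baclofen (SE, 95% interval of the difference −0.22 to 0.09, exact permutation p = 0.405, adjusted 0.667). This difference was −0.01 without control library 1 and −0.10 without control library 3. The intervals do not exclude differences of such a size, so equal changes are not shown.

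**Figure D4:**
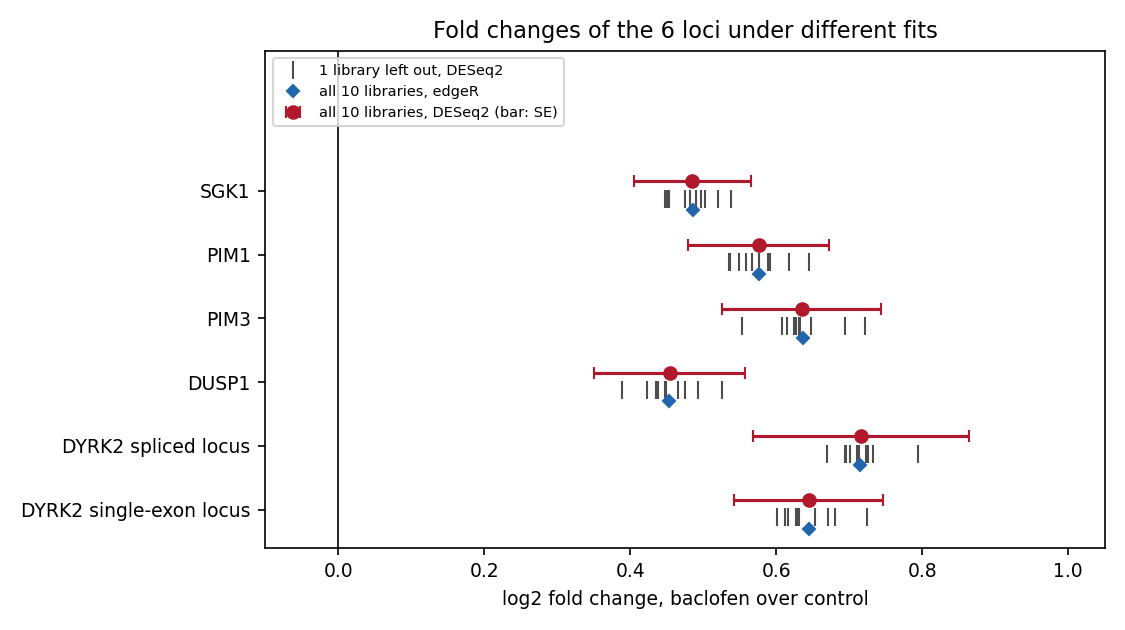
Log2 fold change of baclofen over control (x axis) of the 6 loci. Red circles are DESeq2 values with all 10 libraries and bars are their SE, blue diamonds are edgeR values, and grey ticks are DESeq2 values with 1 library left out. All values lie above 0, between 0.39 for DUSP1 without control library 1 and 0.79 for the spliced DYRK2 locus without baclofen library 3. The loci were chosen as higher with baclofen, and their groups do not overlap, so values above 0 came with their choice.

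The adjusted p that chose the loci rests on the size of the spread within the groups, but not on whether 2 loci deviate in the same libraries, which was examined next. Each value was taken as log2 of the normalised count plus 0.5 and set against its group mean. Among baclofen libraries, library 5 was above the group mean in 6 of 6 loci, and library 1 was the lowest in 3 and the highest in 2 (PIM1 and PIM3). Among controls, library 2 was above the group mean in 6 of 6 loci and was the highest in 5 of them, whereas library 1 was below that mean in all 6 and the lowest in 4. The fold changes therefore moved in opposite directions when one or the other of these 2 controls was left out. Without control library 1 the log2 fold changes were 0.45 for SGK1, 0.54 for PIM1, 0.39 for DUSP1, 0.70 for the spliced and 0.63 for the single-exon DYRK2 locus. Without control library 2 they were 0.54 for SGK1, 0.64 for PIM1, 0.53 for DUSP1, 0.73 for the spliced and 0.67 for the single-exon DYRK2 locus.

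Within the groups, 2 pairs of loci varied together over the 10 libraries. SGK1 and DUSP1 had a Pearson correlation of r = 0.86 (exact permutation within groups, p = 0.00549, adjusted over 15 pairs 0.0438) and a Spearman rho of 0.79 (exact permutation p = 0.0204, adjusted 0.180). Without control libraries 2 and 4, the farthest from the median of SGK1, r was 0.93. Those 2 libraries acted in opposite directions. Without control library 4 alone r was 0.97, and without control library 2 alone it fell to 0.78 (exact permutation within groups, adjusted p = 0.180).

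PIM1 and PIM3 were the other pair, with r = 0.85 (exact permutation within groups, p = 0.00583, adjusted 0.0438) and rho = 0.75 (exact permutation p = 0.0240, adjusted 0.180). Without baclofen library 1 and control library 2, the farthest from the median of PIM1, r was 0.76. Control library 2 was the highest point of both pairs, and control library 1 had the lowest DUSP1 and PIM3 values. The adjusted p of each pair was close to the threshold. With TMM factors in place of size factors it was 0.0583 for both, and with 1 library left out it was above 0.05 for SGK1 and DUSP1 in 9 of 10 cases (the exception being without control library 4), and likewise for PIM1 and PIM3 (the exception being without control library 3).

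**Figure D5:**
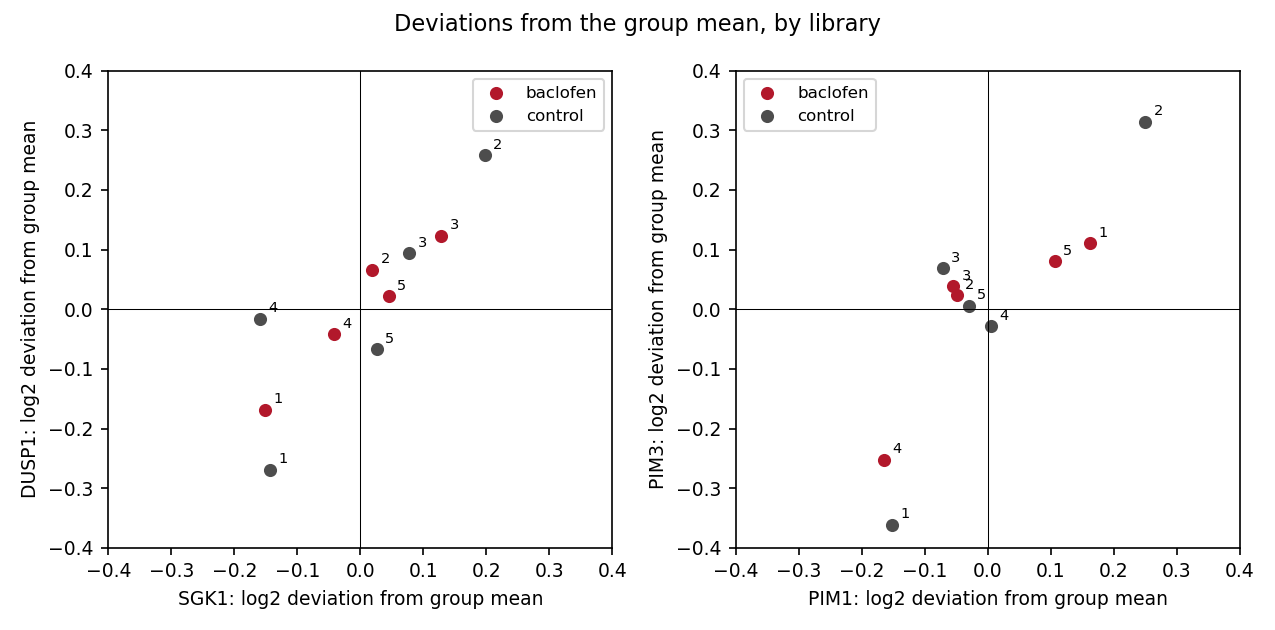
Deviation of each library from its group mean in log2 units, for SGK1 (x axis) and DUSP1 (y axis) on the left and for PIM1 (x axis) and PIM3 (y axis) on the right. Red points are baclofen libraries, grey points are control libraries and numbers are library numbers. Points rise together in both panels (r = 0.86 and r = 0.85), with control library 2 at the upper right and control library 1 at the lower left.

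The other pairs did not pass. Over the 15 pairs 13 correlations were positive, with a median of 0.34 and a range from −0.15 to 0.86, and 4 had an unadjusted exact permutation p under 0.05. The 2 DYRK2 loci, neighbours under one name, had an r of 0.34 (exact permutation p = 0.441, adjusted 0.781). In the spliced locus, counting alone gives coefficients of variation of 9.46% (baclofen) and 12.4% (control), beside 13.7% and 3.21% found. With so few counts a low r cannot decide whether the 2 loci vary together. Without baclofen libraries 2 and 3, the farthest from the median of the spliced locus, r was 0.59. The value depended on baclofen library 3, without which r was 0.72, and on baclofen library 2, without which it was 0.22, and rho over all libraries was 0.54. Beside these values, the correlation of a member with any of 16374 other loci of sufficient count had a median between −0.06 (spliced DYRK2) and 0.18 (DUSP1). Between 42.6% and 61.9% of those loci had a positive correlation, and the upper end of their central 95% ran from 0.61 (spliced DYRK2) to 0.83 (PIM3). By this order DUSP1 ranked 28 for SGK1 and PIM3 ranked 21 for PIM1. Seen from the partner the ranks were lower, 151 for SGK1 with DUSP1 and 256 for PIM1 with PIM3.

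For each of the 6 loci, the 2 loci most like it within the groups had correlations from 0.91 to 0.98, over the 10 libraries that all loci share. They were picked as the highest of 16374 correlations, so high values came with their choice. None of these 12 loci carries a name in the study's lists, and none passed the threshold between the groups. The locus most like DUSP1 was MSTRG.7181 (r = 0.98), with normalised counts of 836 ± 39.4 with baclofen, against 892 ± 70.3 in controls (SD, n = 5 each). The locus most like PIM3 was MSTRG.5677 (r = 0.96), with 1839 ± 203 with baclofen and 1889 ± 282 in controls. The log2 fold changes of the 12 loci ran from −0.23 to 0.15.

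No other tested locus within 50 kb of the 6 was called in the fit of all 10 libraries. Within 20 kb lay 13 other loci, of which 8 were tested, and none had an adjusted p under 0.05 in DESeq2 or in edgeR, while 1 had an unadjusted p under 0.05 in each. With 0.345% of all tested loci called, no call was to be looked for among so few loci. Within 50 kb it was none of 16 tested loci, again with 1 at an unadjusted p under 0.05. That one was MSTRG.13498, on the strand opposite to DUSP1, with 346 ± 41.6 counts with baclofen, against 401 ± 33.7 in controls (SD over the 5 libraries of each group), which gave a log2 fold change of −0.21 ± 0.10 (its SE) and an adjusted p of 0.778 in DESeq2. It shares 19 of the 3212 exon bases of DUSP1, and since the counting used strand its fragments are not those of DUSP1.

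Nearest to PIM3 on its strand was MSTRG.8136, which starts 2444 bp after it and had 593 ± 63.8 counts with baclofen and 622 ± 83.2 in controls. MSTRG.8325, which ends 8267 bp before the spliced DYRK2 locus, had 1417 ± 125 counts with baclofen and 1290 ± 95.2 in controls, a log2 fold change of 0.14 ± 0.08 (its SE) and an adjusted p of 0.932 in DESeq2. MSTRG.26005, 12059 bp from PIM1 on its strand, had 496 ± 39.4 counts with baclofen and 532 ± 77.5 in controls. SGK1 lies within the span of MSTRG.1244 on the opposite strand, which had 9577 ± 165 counts with baclofen and 9157 ± 229 in controls, a log2 fold change of 0.06 ± 0.04 (its SE) and an adjusted p of 0.932 in DESeq2. On its own strand, SGK1 also lies within the span of MSTRG.1263 (153 ± 17.4 counts with baclofen, 148 ± 21.0 in controls). DUSP1 lies within the span of MSTRG.13480 on its strand (245 ± 32.4 counts with baclofen, 266 ± 41.7 in controls). It also overlaps the span of MSTRG.13496 on that strand, with 6 raw counts over the baclofen libraries and 9 over the controls. No exon of the 6 loci overlaps an exon of another locus on the same strand.

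Other genes of signalling and of stress responses were taken from the study's list of baclofen genes, which was chosen on these same libraries, so their counts are no independent evidence. Of 6 signalling regulators, 5 were called higher and 1 lower by DESeq2, with a median log2 fold change of 0.36, and edgeR called none. Being called came with their choice, and of all 82 loci called by DESeq2, 64 were higher. PIK3R3, a regulatory subunit of PI3 kinase, the enzyme upstream of SGK1, had 3818 ± 205 counts with baclofen and 3308 ± 85.5 in controls (log2 fold change 0.21 ± 0.05). TRIB2, a pseudokinase, had 766 ± 72.0 with baclofen and 579 ± 63.2 in controls (0.41 ± 0.09). CASK, a scaffold protein of synapses, was the one that was lower, with 684 ± 42.0 with baclofen and 828 ± 65.7 in controls (−0.28 ± 0.07).

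Of 10 loci linked to stress, inflammation or steroids, 7 were called higher and 3 lower by DESeq2, with a median log2 fold change of 0.43, and edgeR called 4. Their DESeq2 calls too came with their choice, beside 64 higher among all 82 called loci. TSC22 domain family protein 3, known in mammals as a glucocorticoid-induced leucine zipper protein, had 1047 ± 89.3 counts with baclofen and 467 ± 214 in controls (log2 fold change 1.17 ± 0.30 SE, edgeR adjusted p = 0.0905). NFKBIE, which keeps NF-kappa-B inactive in the cytoplasm, had 412 ± 32.3 with baclofen and 171 ± 53.7 in controls (1.27 ± 0.17). DNAJB4, a cochaperone of the heat shock proteins, had 1115 ± 39.3 with baclofen and 911 ± 70.7 in controls (0.29 ± 0.06). The 3 lower ones included TAT, a tyrosine-degrading enzyme of the liver that glucocorticoids induce in mammals, with 2982 ± 408 with baclofen and 4674 ± 824 in controls (−0.65 ± 0.12), and tryptophan 2,3-dioxygenase (−0.50 ± 0.11), which degrades tryptophan.

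Cell type markers were read for the composition of the tissue. None of them was at 0 in any library. The summed normalised counts of 4 markers of neurons ran from 17553 to 19723 in baclofen libraries and from 16496 to 18413 in controls, and those of 3 markers of glia from 15140 to 17326 in baclofen libraries and from 14656 to 17801 in controls. The markers were taken from names in the study's lists of changed genes, which were partly chosen on these libraries, so that a share of called markers above the 0.345% of all tested loci comes with their choice. DESeq2 called 2 of the 4 neuronal markers (CPLX1 and MAP6) and 1 of the 3 glial markers (SoxE1) higher and none lower, and edgeR called none of the markers of any cell type. The uncalled neuronal markers had negative log2 fold changes (GABRA5 −0.13, CARTPT −0.09), and so had SLC4A4 among glial markers (−0.18), with VIM at 0.02. CPLX1 (mean 15353 with baclofen, 13694 in controls) dominated the neuronal sum, and VIM (10965.5 with baclofen, 10828 in controls) the glial sum. The 4 markers of blood and immune cells ran from 914 to 1141 in baclofen libraries and from 999 to 1247 in controls, with PTPRC and TLR2 called higher and VLRA and CD62L called lower by DESeq2. PTPRC is also among the signalling regulators counted as higher above. TOP2A, the 1 marker of dividing cells, ran from 488 to 597 in baclofen libraries and from 339 to 509 in controls and was called higher (log2 fold change 0.41 ± 0.10 SE, DESeq2 adjusted p = 0.0219). The part of these shifts in the values of the 6 loci was not tested.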

How the data were processed

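RNA of 5 baclofen and 5 control brainstem pools was measured. The deposited values are raw fragment counts per locus, which the authors made from stranded, poly-A selected paired-end libraries with STAR on Pmar_germline 1.0, StringTie assembly and featureCounts (versions are not given in the sources used here). Because loci were assembled from these reads, a gene may be split over several loci. Counts of all 57134 loci were compared by DESeq2 (version 1.42.0, run in R 4.3.3; Wald test, treatment only, size factors, default filters), which gave adjusted p-values at 23794 loci with a mean normalised count above 14.3. The threshold was 0.05. The edgeR quasi-likelihood test (version 4.0.16), other scalings and filters, a replicate block and each library left out were alternatives. Ratios of loci were compared by exact permutation over 252 arrangements, whose smallest p is 0.00794, and within-group correlations over 14400 arrangements, on log2(normalised count + 0.5). The 95% intervals come from inverting that test. The tests were checked on simulated data. In 2 loci an exon list broken over lines was rejoined.

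The 6 loci and all lists were chosen with earlier results of these data known. Named were the 6 loci, loci within 20 kb of them, the 2 most alike loci of each (mean normalised count of at least 50), and listed regulators and markers that the study's lists pair with locus numbers, of which the examples above were picked after their values were seen. No sequence was analysed here. Labels do not say that libraries are separate experiments, so p-values measure the spread between pools.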

Additional observations from a re-analysis of the deposited data

Results flagged for a closer look

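The PIM3 count of baclofen library 4 (884 normalised counts) lay far below the other 4 baclofen libraries (1070.4 to 1136). Its gap to the nearest of them was 0.738 of the range of the group, above Dixon's 95% critical value of 0.71 for 5 samples. It was 1 of 18 groups of 5 values examined, and chance gives such a gap in about 5% of groups. Without this library the log2 fold change of PIM3 was 0.69, against 0.63 with it. The same library was also the lowest of its group in PIM1 (409.5 normalised counts).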

How the results depend on the processing

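The direction of all 6 fold changes held in every alternative run, from 0.39 (DUSP1 without control library 1) to 0.79 (spliced DYRK2 without baclofen library 3). That outcome came with the choice of the loci. In all 6, every baclofen library lay above every control, so leaving out 1 library could hardly turn a direction. Of the 6 loci, 6 were called in most settings, 5 with edgeR and 4 with the replicate block, and 5 to 6 when 1 library was left out. DUSP1 lost its call with edgeR (adjusted p = 0.126), with the block (0.0595) and without baclofen library 3 or 5 or control library 5, and spliced DYRK2 with the block (0.189). A t distribution for the DESeq2 Wald test called 0 of 51732 tested loci, and so 0 of the 6 (adjusted p of 0.996 or more). Of those 51732 loci, 853 had an unadjusted p under 0.05 in that test. Without control library 1 the spliced DYRK2 locus received no adjusted p from DESeq2.

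Over all loci, 82 were called, against 25 with edgeR (30 without its filter), 45 with the replicate block and 49 (without baclofen library 5) to 426 (without control library 1). Same-numbered libraries did not deviate from their group means together over loci (correlations of −0.07 to −0.0036). With so few libraries this cannot decide whether the numbers mark a shared processing step. The group difference in the log2 ratio of spliced to single-exon DYRK2, 0.07, ran from −0.0146 (without baclofen library 1) to 0.150 (without baclofen library 3). Correlated pairs numbered 2, but 0 with Spearman's rho, TMM factors or total counts, and 0 to 1 with a library left out. With total counts r was 0.78 for SGK1 and DUSP1 and 0.77 for PIM1 and PIM3 (adjusted p = 0.153 by exact permutation). The causes were not tested. Of the described loci, spliced DYRK2 had the fewest raw counts, with 51 to 142 a library.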
